A study of Mus musculus with 6 samples.

Results

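Cholesterol synthesis and SREBP2 regulation genes were examined in RNA of liver non-parenchymal cells from mice given acetaminophen. The set holds 27 genes, matched by gene name in the 6 deposited count files, which list 53546 genes each. It covers 20 enzymes from acetyl-CoA to cholesterol and 7 genes of sterol sensing, SREBP2 processing and sterol transport, and all 27 passed the filter on low counts that left 20541 genes for testing.

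Libraries from 3 SRA-/- samples were compared with libraries from 3 wild type samples. All 6 were from male mice injected intraperitoneally with acetaminophen at 400 mg/kg and sampled 6 h later, and since mice without the drug were not analysed here, the values say nothing of a response to it. SRA-/- mice lack scavenger receptor A, a macrophage receptor for modified lipoproteins and other polyanionic ligands, encoded by Msr1. The labels number the samples as biological replicates, and they give neither strain, age, the design of the disrupted allele nor whether cells of several animals were pooled.

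Cholesterol is built from acetyl-CoA through mevalonate, isoprenoid diphosphates, squalene and lanosterol, and the enzymes of the whole route are held under common control by the transcription factor SREBP2. SREBP2 is made as a membrane protein bound to its escort SCAP. When membrane sterol is plentiful, INSIG proteins hold the complex in the endoplasmic reticulum. When sterol falls, SCAP carries SREBP2 to the Golgi, where a pair of proteases releases the active fragment. Hepatocytes are the main site of cholesterol synthesis in the liver, and macrophages and endothelial cells run the same pathway while also taking up lipoprotein cholesterol.

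Gene counts per library summed to between 23757203 and 44003902. Levels are given as CPM, counts scaled to the TMM-adjusted library total. Msr1 was read in every library, at 40.2, 33.6 and 42.0 CPM in SRA-/- replicates 1, 2 and 3, against 38.6, 73.5 and 114 CPM in wild type replicates 1, 2 and 3. Wild type replicate 1 lay within the SRA-/- range, and the log2 fold change was -0.96 ± 0.33 (SE; edgeR adjusted p 0.9999), so a count over the whole gene does not check the genotype label. Genes of sinusoidal endothelial, Kupffer and stellate cells were present in every library, and so was hepatocyte RNA. The hepatocyte list of 23 genes summed to 58610, 52641 and 103025 CPM in SRA-/- replicates 1, 2 and 3, against 86697, 61963 and 29860 CPM in wild type replicates 1, 2 and 3. Alb, for albumin, had 34342, 31262 and 68031 CPM in SRA-/- replicates 1, 2 and 3, against 55804, 38175 and 16227 CPM in wild type replicates 1, 2 and 3. SRA-/- replicate 3 was thus the richest in hepatocyte RNA and wild type replicate 3 the poorest. In bulk RNA of this kind, fewer cells of a type and less RNA per cell cannot be told apart. Genes of pancreatic acinar cells, a list of 7, summed to 1.39, 238 and 0.817 CPM in SRA-/- replicates 1, 2 and 3, against 382, 332 and 638 CPM in wild type replicates 1, 2 and 3, so SRA-/- replicate 2 stood apart from the other SRA-/- libraries. All 7 were lower in SRA-/- libraries without overlap, against 3.33% of all tested genes. EdgeR called 0 of them after adjustment, against 0.0487% of all tested genes. At an unadjusted p under 0.05 by edgeR 0 were lower, against 0.896% of all tested genes, and 0 were higher, against 2.32%. The part of these genes in the results was not tested.

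The comparison of SRA-/- with wild type libraries asked how loss of the receptor bears on these genes after acetaminophen. The median log2 fold change of SRA-/- over wild type libraries was 0.71 over 20 enzymes, 0.97 over the 3 from farnesyl diphosphate to lanosterol and 0.13 over the 7 regulators and transport genes. Without SRA-/- replicate 3 and wild type replicate 3, the libraries richest and poorest in hepatocyte RNA, the median over the enzymes was 0.33. No member passed edgeR's test adjusted over all genes. Of the 27 members 25 had a log2 fold change above 0, or 92.6%, against 48.3% of all tested genes, and the median was 0.56 against -0.01 over all tested genes. By edgeR's quasi-likelihood test with Benjamini-Hochberg adjustment over all tested genes, 0 of 27 passed the threshold of 0.05, where 0.0487% of all genes did. At an unadjusted p under 0.05, 10 members did, all higher in SRA-/- libraries, against 2.32% of all genes in that direction, and 0 were lower, against 0.896%. DESeq2 called 0 members (0.375% of all genes) and 12 at an unadjusted p under 0.05 (3.51%). Limma-voom with quality weights called 2, Lss and Nsdhl (0.365%), and 15 at an unadjusted p under 0.05 (11.6%). In 6 members every SRA-/- library exceeded every wild type library, against 3.97% of all genes, and in 0 members the reverse held, against 3.33%.

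**Figure D1:**
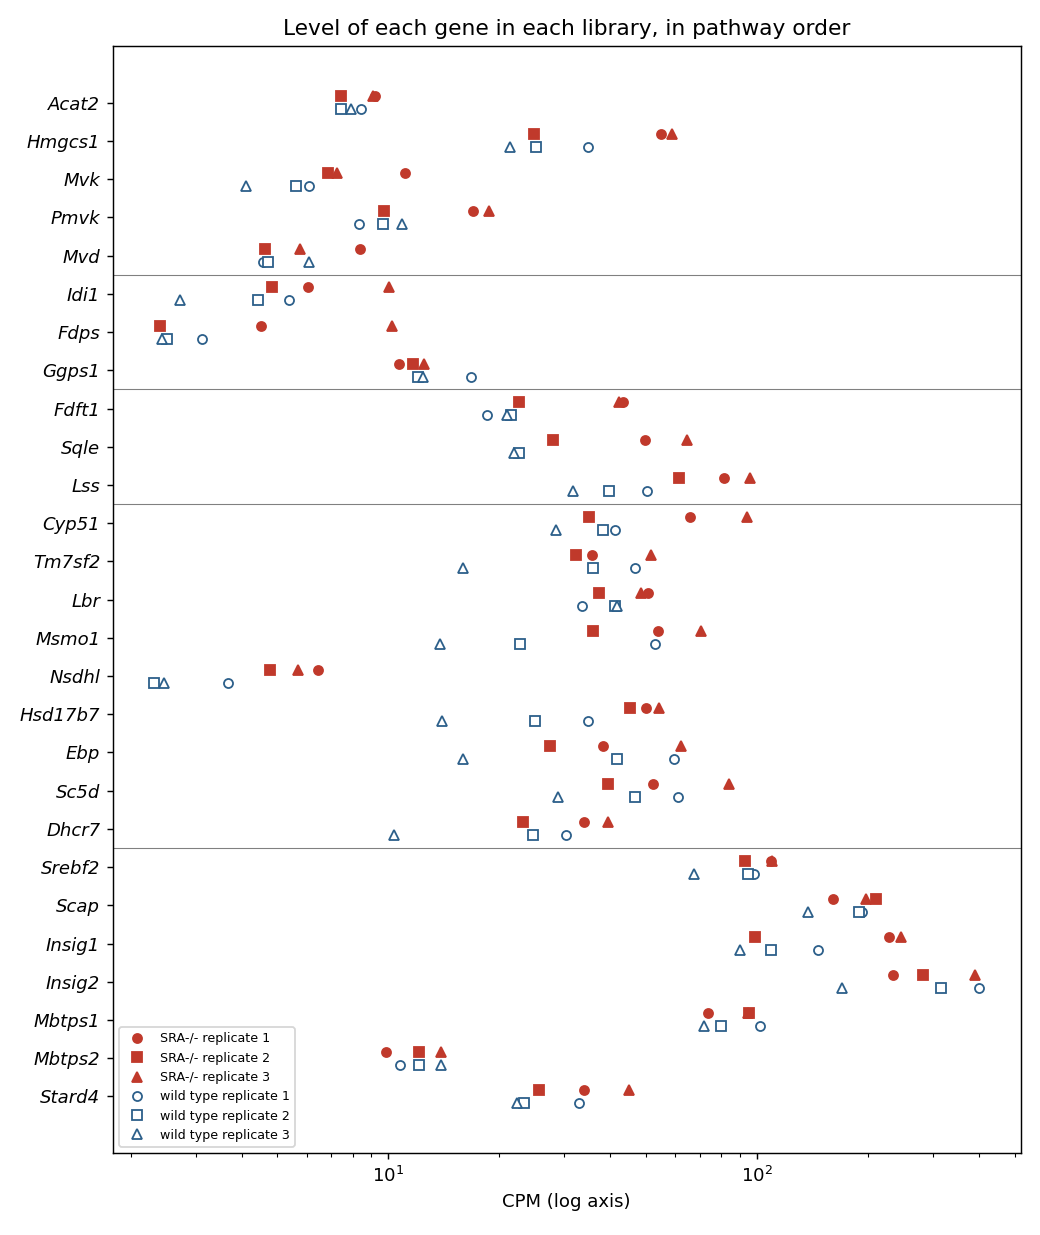
CPM of the 27 genes on a log axis, in pathway order from top to bottom, with SRA-/- libraries as filled symbols above and wild type libraries as open symbols below each line; circles, squares and triangles are replicates 1, 2 and 3. Fdft1, Sqle, Lss, Nsdhl, Hsd17b7 and Mvk show no overlap of the groups, and wild type replicate 3 is the lowest of the 6 libraries in 18 of 27 genes.

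The early steps, from acetyl-CoA to the activated isoprenoid precursor, held 5 members, of which 5 were above 0 with a median log2 fold change of 0.65. Mvk encodes mevalonate kinase (chromosome 5, 114582330 to 114598652, mm39). It had 11.1, 6.85 and 7.26 CPM in SRA-/- replicates 1, 2 and 3, against 6.08, 5.62 and 4.12 CPM in wild type replicates 1, 2 and 3. Every SRA-/- library was above every wild type library. Its log2 fold change of 0.68 ± 0.27 (SE) had a raw p of 0.0310 in edgeR, and 0.9999 once adjusted.

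Hmgcs1, which encodes the cytosolic HMG-CoA synthase (chromosome 13, 120151915 to 120169796), had the highest log2 fold change of the early steps. Its level was 54.8, 24.9 and 58.8 CPM in SRA-/- replicates 1, 2 and 3, against 34.8, 25.2 and 21.4 CPM in wild type replicates 1, 2 and 3. SRA-/- replicates 1 and 3 stood above all wild type libraries, and SRA-/- replicate 2 lay among them, so the groups overlapped. The log2 fold change of 0.77 ± 0.32 (SE) had a raw p of 0.0379 in edgeR, and 0.9999 once adjusted. Pmvk, for phosphomevalonate kinase, had the same arrangement, with a log2 fold change of 0.65 ± 0.26 (SE). Acat2, the thiolase that joins acetyl-CoA units, and Mvd, the mevalonate diphosphate decarboxylase, had 0.11 ± 0.20 and 0.29 ± 0.27 (SE) and overlapping groups.

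The prenyl steps held 3 members. Idi1 encodes the isomerase of isopentenyl diphosphate and had a log2 fold change of 0.74 ± 0.34 (SE). Fdps encodes farnesyl diphosphate synthase, the branch point between sterols and other isoprenoids. It had 208, 72 and 225 counts, or 4.53, 2.40 and 10.2 CPM, in SRA-/- replicates 1, 2 and 3, against 91, 66 and 82 counts, or 3.13, 2.51 and 2.43 CPM, in wild type replicates 1, 2 and 3. SRA-/- replicate 3 carried most of the difference, and SRA-/- replicate 2 was the lowest of all 6 libraries. The log2 fold change was 1.08 ± 0.46 (SE), and it was 0.37 without SRA-/- replicate 3. Of the exonic bases of Fdps 26.7% are shared with Gm43738, and the counting command set no option to count reads that fall on both genes. Ggps1 encodes geranylgeranyl diphosphate synthase, which leads away from sterols to protein prenylation. It was 1 of the 2 members below 0, at -0.24 ± 0.20 (SE), with overlapping groups.

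The steps from farnesyl diphosphate to lanosterol had the highest median log2 fold change of the role groups, at 0.97. In 3 of 3 members every SRA-/- library exceeded every wild type library, against 3.97% of all genes. Sqle encodes squalene epoxidase, a rate-limiting oxygen-dependent step of the sterol route (chromosome 15, 59186926 to 59203041). It had 49.7, 28.1 and 64.5 CPM in SRA-/- replicates 1, 2 and 3, against 22.3, 22.6 and 21.9 CPM in wild type replicates 1, 2 and 3. The wild type libraries were almost level, with the highest 1.03 times the lowest. The SRA-/- libraries spread 2.30-fold in the order of their hepatocyte sums, and the lowest of them, replicate 2, was still above every wild type library. Its log2 fold change of 1.09 ± 0.27 (SE) had a raw p of 0.00277 in edgeR, and 0.761 once adjusted. Without SRA-/- replicate 2 it was 1.36 and its adjusted p in edgeR was 0.0455, and no other alternative run with edgeR called a member.

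Lss encodes lanosterol synthase, which closes the rings of the sterol (chromosome 10, 76367422 to 76392972). Its level was 81.3, 61.5 and 95.7 CPM in SRA-/- replicates 1, 2 and 3, against 50.4, 39.6 and 31.6 CPM in wild type replicates 1, 2 and 3. It had the smallest p of all members, at a log2 fold change of 0.97 ± 0.23 (SE), a raw p of 0.00204 in edgeR and 0.748 once adjusted. Limma-voom with quality weights gave it an adjusted p of 0.0339. Fdft1 encodes squalene synthase, the enzyme that commits farnesyl diphosphate to sterols (chromosome 14, 63382599 to 63417027). It had 43.4, 22.6 and 42.3 CPM in SRA-/- replicates 1, 2 and 3, against 18.6, 21.5 and 21.1 CPM in wild type replicates 1, 2 and 3. SRA-/- replicate 2 was above wild type by only a small margin, and the log2 fold change was 0.83 ± 0.25 (SE). Ctsb shares 18.8% of the exonic bases of Fdft1, and counting was without strand.

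From lanosterol to cholesterol there were 9 members, all 9 above 0, with a median log2 fold change of 0.56. In 2 of 9 the groups did not overlap, higher in SRA-/- libraries, against 3.97% of all genes. Without SRA-/- replicate 3 and wild type replicate 3, 6 of 9 were above 0, with a median of 0.24. Hsd17b7 encodes the keto-reductase of the demethylation complex (chromosome 1, 169777104 to 169796810). It had 50.1, 45.1 and 54.2 CPM in SRA-/- replicates 1, 2 and 3, against 34.8, 25.0 and 13.9 CPM in wild type replicates 1, 2 and 3. The SRA-/- libraries lay close together here and the wild type libraries apart, the reverse of Sqle. Its log2 fold change of 1.02 ± 0.29 (SE) had a raw p of 0.00634 in edgeR, and 0.923 once adjusted.

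Nsdhl encodes the decarboxylating dehydrogenase of the same complex (chromosome X, 71962163 to 72002120). It had 297, 143 and 125 counts, or 6.46, 4.78 and 5.67 CPM, in SRA-/- replicates 1, 2 and 3. In wild type replicates 1, 2 and 3 it had 107, 61 and 83 counts, or 3.68, 2.32 and 2.46 CPM. All SRA-/- libraries were above all wild type libraries, on counts to which a fragment can contribute 2. The log2 fold change was 1.0 ± 0.27 (SE), and its adjusted p was 0.841 in edgeR and 0.0355 in limma-voom with quality weights.

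Msmo1, the methylsterol monooxygenase, had 53.8, 35.9 and 70.4 CPM in SRA-/- replicates 1, 2 and 3, against 53.0, 22.8 and 13.8 CPM in wild type replicates 1, 2 and 3. Ebp, the sterol isomerase, had 38.3, 27.5 and 62.1 CPM in SRA-/- replicates 1, 2 and 3, against 59.6, 41.6 and 15.9 CPM in wild type replicates 1, 2 and 3. In both genes the wild type libraries ran in the order of their hepatocyte sums, as they also did in Lss and Hsd17b7 among others, with ratios of highest to lowest of 3.83 for Msmo1 and 3.75 for Ebp. Log2 fold changes were 0.84 ± 0.44 for Msmo1 and 0.13 ± 0.44 for Ebp (SE). Cyp51, the lanosterol demethylase, had 0.85 ± 0.32 (SE) with overlapping groups and an unadjusted p of 0.0250 by edgeR. Dhcr7, which reduces a double bond of the sterol ring, had 0.56 ± 0.36, and Sc5d, the sterol desaturase, 0.36 ± 0.33. The sterol reductases Tm7sf2 and Lbr, which catalyse the same step, had 0.28 ± 0.35 and 0.23 ± 0.18, the first with wild type libraries 2.92-fold apart and the second 1.25-fold. Lbr is also a receptor of the nuclear lamina.

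Among the regulators and transport genes, 6 of 7 were above 0 with a median of 0.13. By edgeR 0 of 7 had an unadjusted p under 0.05, against 3.22% of all genes in either direction. Insig1, a sterol-regulated retention protein and itself a target of SREBP2 (chromosome 5, 28276361 to 28283660), had the highest log2 fold change of them. It had 228, 98.6 and 246 CPM in SRA-/- replicates 1, 2 and 3, against 146, 109 and 90.2 CPM in wild type replicates 1, 2 and 3. SRA-/- replicates 1 and 3 were above all wild type libraries, and SRA-/- replicate 2 was below wild type replicates 1 and 2. The log2 fold change of 0.73 ± 0.34 (SE) had a raw p of 0.0577 in edgeR, and 0.9999 once adjusted.

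Insig2, the paralogue that is not induced by SREBP2 in the same way (chromosome 1, 121232082 to 121260318), had the highest level per length of all 27 members. It averaged 86.9 CPM per kilobase of exon in SRA-/- libraries and 85.1 in wild type libraries, where Insig1 averaged 61.7 in SRA-/- libraries and 37.3 in wild type libraries. Library by library it had 234, 282 and 390 CPM in SRA-/- replicates 1, 2 and 3, against 401, 315 and 170 CPM in wild type replicates 1, 2 and 3. The groups overlapped throughout, and the log2 fold change was 0.03 ± 0.33 (SE). On the scale of CPM per kilobase, the ratio of Insig1 to Insig2 was 1.09, 0.393 and 0.709 in SRA-/- replicates 1, 2 and 3, against 0.410, 0.389 and 0.595 in wild type replicates 1, 2 and 3. Only SRA-/- replicate 1 held more Insig1 than Insig2 per length, and SRA-/- replicate 2 lay among the wild type libraries.

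The remaining regulators differed little in mean. Srebf2, which encodes SREBP2, had 109, 93.1 and 110 CPM in SRA-/- replicates 1, 2 and 3, against 98.4, 94.3 and 67.3 CPM in wild type replicates 1, 2 and 3, a log2 fold change of 0.27 ± 0.20 (SE). Scap, the escort, had 0.13 ± 0.21, and the site-1 and site-2 proteases Mbtps1 and Mbtps2 had 0.05 ± 0.20 and -0.04 ± 0.20. These 4 genes missed the threshold, which does not show that their levels were alike. Stard4, a cytosolic carrier of cholesterol, had 0.41 ± 0.24 (SE). By level per length the order of the members was Insig2, Insig1, Scap, Ebp and Srebf2 at the top, with 86.0, 49.5, 24.4, 17.7 and 13.3 CPM per kilobase over all libraries. Fdps and Mbtps2 were lowest, at 0.998 and 1.20. Yy2 shares 28.4% of the exonic bases of Mbtps2, so the level of Mbtps2 is uncertain. The shared part was 13.2% for Scap with 5830462I19Rik, 12.1% for Hmgcs1 with Gm48342 and 12.1% for Tm7sf2 with Vps51. Smaller parts were shared in Idi1, Lbr, Ggps1, Cyp51 and Lss.

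**Figure D2:**
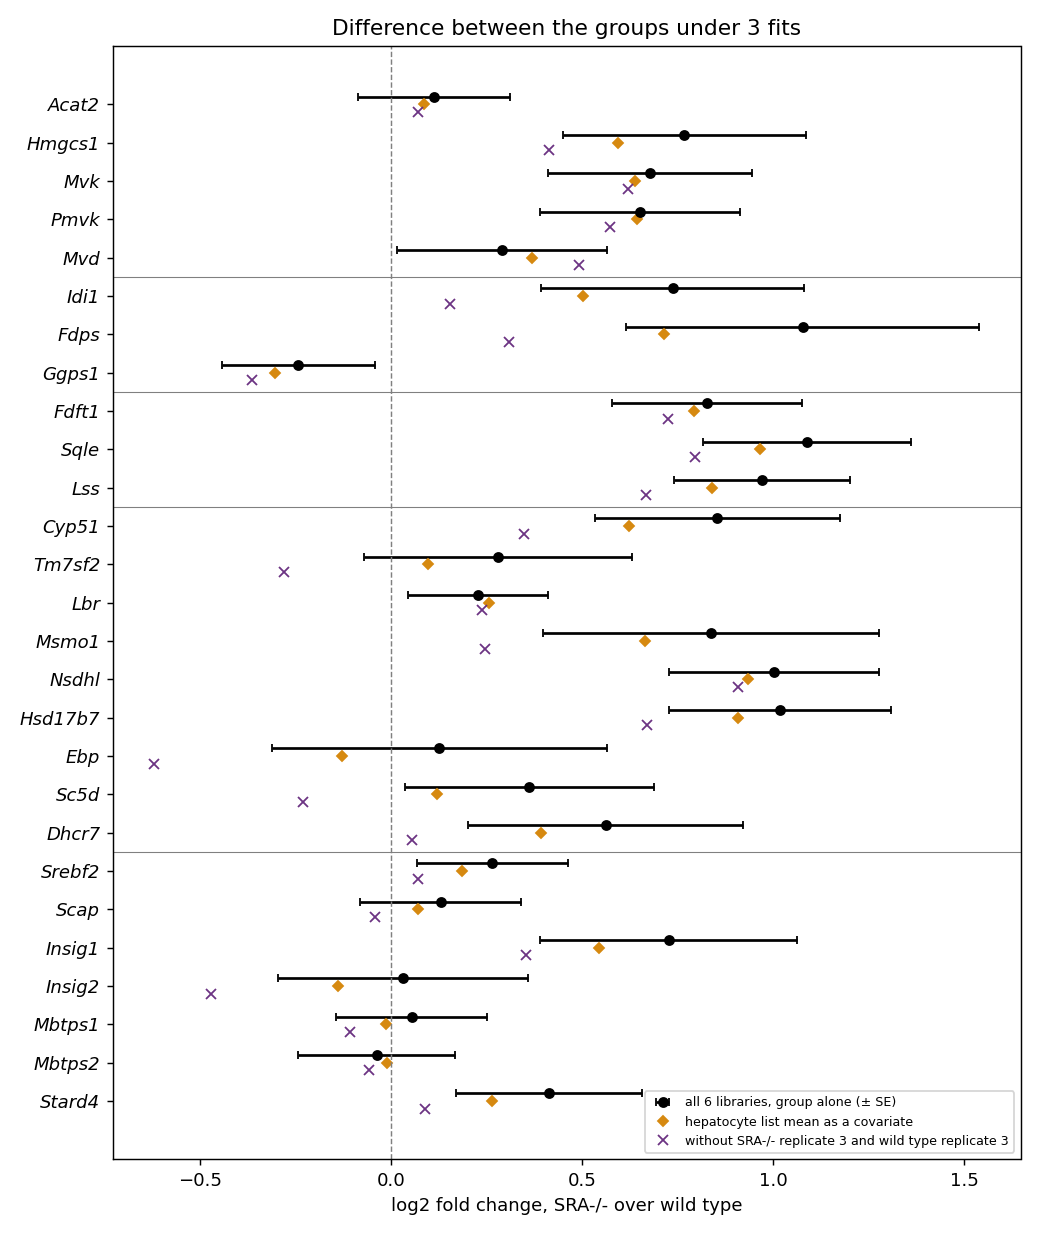
Log2 fold change of SRA-/- over wild type for each gene in pathway order: circles with bars are the fit on all 6 libraries with its SE, diamonds the fit with the hepatocyte list mean as a covariate, and crosses the fit without SRA-/- replicate 3 and wild type replicate 3. Fdft1, Sqle, Lss, Nsdhl and Hsd17b7 lie at 0.67 or higher in all 3 fits, while Ebp is at 0.13, -0.13 and -0.62.

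The members shared an order of the libraries. Wild type replicate 3 was the lowest of the 6 libraries in 18 of 27 members, against 22.2% of all tested genes, and in 17 of 23 genes of the hepatocyte list. SRA-/- replicate 3 was the highest of the 6 in 17 of 27 members, against 16.2% of all tested genes, and likewise in 17 of 23 hepatocyte genes. SRA-/- replicate 2 was the lowest SRA-/- library in 22 of 27 members, against 34.9% of all tested genes. In that library Hmgcs1, Pmvk and Insig1 lay within the wild type range and Fdps below it, while Mvk, Fdft1, Sqle, Lss, Nsdhl and Hsd17b7 lay above it. Wild type replicate 3 was the lowest wild type library in 19 of 27 members, against 36.7% of all tested genes. The mitochondrial share of counts was 11.2%, 21.1% and 6.64% in SRA-/- replicates 1, 2 and 3, against 19.8%, 9.95% and 16.1% in wild type replicates 1, 2 and 3. Among SRA-/- libraries it was thus highest in replicate 2 and lowest in replicate 3, and its part in the results was not tested.

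The 3 genes from farnesyl diphosphate to lanosterol summed to 174, 112 and 202 CPM in SRA-/- replicates 1, 2 and 3, against 91.3, 83.8 and 74.6 CPM in wild type replicates 1, 2 and 3. These sums did not overlap, and the wild type sums spanned a narrow range. The 9 later genes summed to 387, 281 and 510 CPM in SRA-/- replicates 1, 2 and 3, against 364, 278 and 172 CPM in wild type replicates 1, 2 and 3. These overlapped. In the sums of both sets of genes, the libraries of each group ran in the order of the hepatocyte list.

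**Figure D3:**
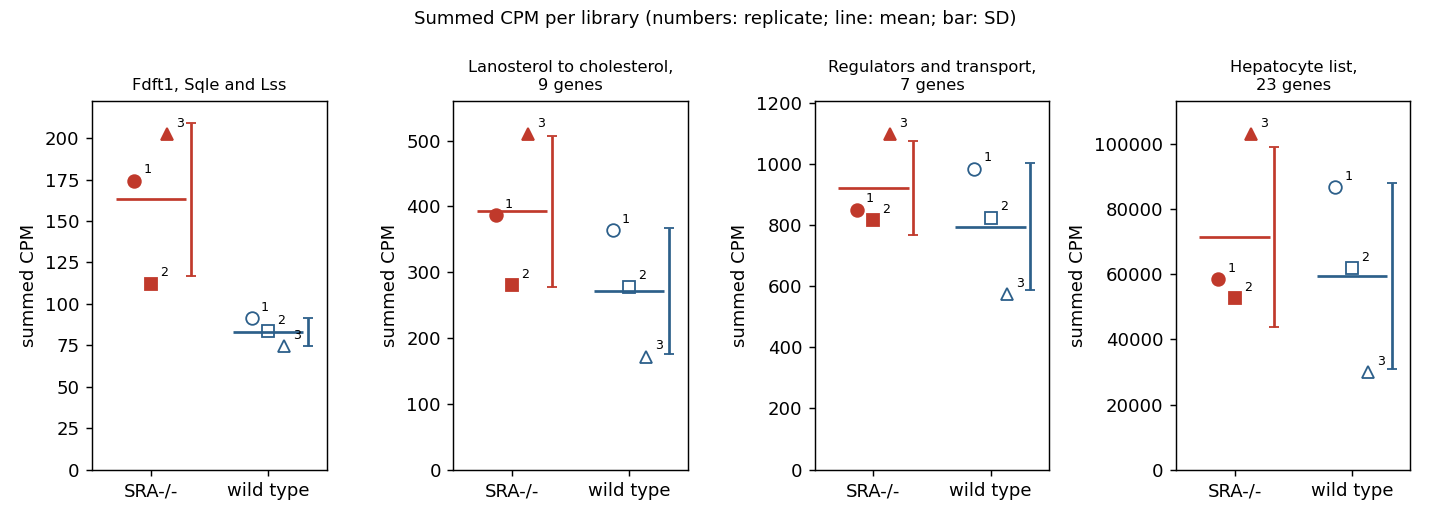
Summed CPM in each library for Fdft1, Sqle and Lss, for the 9 genes from lanosterol to cholesterol, for the 7 regulators and transport genes and for the 23 hepatocyte genes, each axis from 0, with SRA-/- libraries left of wild type libraries; lines are means, bars SD (n = 3), and numbers replicates. The groups are apart in the leftmost panel only, where SRA-/- libraries lie between 112 and 202 CPM and wild type libraries between 74.6 and 91.3 CPM.

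When hepatocyte content entered the fit as a covariate, the median log2 fold change of the members was 0.39, and 9 had an unadjusted p under 0.05 by edgeR, against 5.26% of all genes in that fit in either direction. On all 6 libraries without the covariate that share of all genes was 3.22%. Without SRA-/- replicate 3 and wild type replicate 3 the median was 0.24, with 19 of 27 above 0 and 6 members at an unadjusted p under 0.05, against 4.68% of all genes. In that fit Nsdhl had 0.91, Sqle 0.79, Fdft1 0.72, Hsd17b7 0.67 and Lss 0.67. There Ebp was at -0.62, Insig2 at -0.47, Tm7sf2 at -0.28 and Sc5d at -0.23.

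With single libraries left out, the count of members at an unadjusted p under 0.05 by edgeR ran from 5 to 13. It was 6 without SRA-/- replicate 1 (2.61% of all genes), with a median log2 fold change of 0.44. Without SRA-/- replicate 2, the library that stood apart in acinar genes, it was 13 (3.70%), with a median of 0.75. Without SRA-/- replicate 3 it was 6 (2.85%), with a median of 0.37. The count was 12 without wild type replicate 1 (7.01%), 5 without wild type replicate 2 (2.02%) and 6 without wild type replicate 3 (4.33%), with medians of 0.63, 0.65 and 0.44.

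Summed neutrophil and B cell genes were also higher in SRA-/- libraries without overlap, and their part in the values above was not tested. Of 6 neutrophil genes tested 6 had an unadjusted p under 0.05 by edgeR, all higher in SRA-/- libraries, against 2.32% of all genes. After adjustment over all genes 0 passed, and 3 of the 6 had groups that did not overlap, against 3.97% of all genes. The 7 genes of that list summed to 38.8 to 161 CPM in SRA-/- libraries and 13.3 to 36.6 CPM in wild type libraries. The 5 B cell genes summed to 16.7 to 24.7 CPM in SRA-/- libraries and 8.20 to 10.4 CPM in wild type libraries. Of these 5, edgeR called 0 after adjustment and 3 at an unadjusted p under 0.05, all higher, against 2.32% of all genes. Of the SRA-/- libraries, replicate 2 was lowest in the neutrophil list and highest in the lists of B cells, T and NK cells and Kupffer cells. Kupffer cell genes summed to 636 to 1241 CPM in SRA-/- libraries and 517 to 1180 CPM in wild type libraries. Genes of cycling cells, which need sterol for new membrane, summed to 32.9 to 62.9 CPM in SRA-/- libraries and 28.6 to 56.7 CPM in wild type libraries, so the ranges overlapped. Those of sinusoidal endothelial cells summed to 2052 to 2511 CPM in SRA-/- libraries and 1975 to 3660 CPM in wild type libraries. Stellate cells and cholangiocytes had overlapping sums as well. T and NK cells did too, at 8.25 to 11.8 CPM in SRA-/- libraries and 5.67 to 8.71 CPM in wild type libraries. Of 5 T and NK genes tested 5 were above 0, with a median log2 fold change of 0.44. In 3 of the 5 the groups did not overlap, higher in SRA-/- libraries, against 3.97% of all genes. By edgeR 0 of the 5 were higher at an unadjusted p under 0.05, against 2.32% of all genes. The sum of the 5 recruited monocyte genes, 199 to 411 CPM in SRA-/- libraries and 145 to 265 CPM in wild type libraries, was mostly F10, a coagulation factor that hepatocytes also make. Ccr2, the chemokine receptor on that list, had 2.63, 3.01 and 3.68 CPM in SRA-/- replicates 1, 2 and 3, against 1.31, 1.14 and 1.81 CPM in wild type replicates 1, 2 and 3. Its groups did not overlap, and its log2 fold change was 1.12 ± 0.31 (SE; edgeR adjusted p 0.841). Ccr2 had the smallest p of the list and was the 1 gene of 5 without overlap, against 3.97% of all genes. Of the 5 recruited monocyte genes 3 were above 0, and their median log2 fold change was 0.03.

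Neighbouring pathways differed in how far they went the same way. Of 16 genes of SREBP1 and fatty acid synthesis, 15 were above 0, with a median log2 fold change of 0.43. In edgeR 4 of them reached an unadjusted p under 0.05, all higher, against 2.32% of all genes, and 0 passed over all genes. Wild type replicate 3 was the lowest of the 6 libraries in 11 of the 16, against 22.2% of all tested genes. SRA-/- replicate 3 was the highest in 7 of the 16, against 16.2% of all tested genes. Fasn, fatty acid synthase, had the smallest p, with 360, 279 and 378 CPM in SRA-/- replicates 1, 2 and 3, against 225, 172 and 152 CPM in wild type replicates 1, 2 and 3. Its groups did not overlap, and edgeR gave its log2 fold change of 0.89 ± 0.23 (SE) an adjusted p of 0.767. Scd1, the stearoyl-CoA desaturase with the highest level per length on that list, had 910, 553 and 1826 CPM in SRA-/- replicates 1, 2 and 3. In wild type replicates 1, 2 and 3 it had 1060, 627 and 201 CPM, and it overlapped between the groups like Ebp.

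Branches of the mevalonate pathway that make ubiquinone, dolichol and prenylated proteins gave no such shift. Of 14 genes, 7 were above 0, and the median was -0.02. By edgeR 0 of the 14 had an unadjusted p under 0.05, against 3.22% of all genes in either direction. In 1 of the 14 the groups did not overlap, lower in SRA-/- libraries, against 3.33% of all genes. Pggt1b, a subunit of a geranylgeranyl transferase, had the smallest p with a log2 fold change of -0.25 ± 0.18 (SE), and Rabggtb, the most abundant per length, had 0.02 ± 0.21. Of 9 genes of cholesterol esterification, hydrolysis and oxidation 8 could be tested, since Hsd3b7 had 0 counts in every library, and 5 were above 0, with a median of 0.13. By edgeR 1 of the 8 had an unadjusted p under 0.05, against 3.22% of all genes in either direction. This was Nceh1, which hydrolyses cholesteryl esters in macrophages, with an unadjusted p of 0.00605 by edgeR. It had 38.0, 43.3 and 34.0 CPM in SRA-/- replicates 1, 2 and 3, against 26.0, 27.2 and 22.98 CPM in wild type replicates 1, 2 and 3. Its groups did not overlap, SRA-/- replicate 2 was here the highest library, and the adjusted p was 0.907 by edgeR. Cyp27a1, the sterol hydroxylase with the highest level per length on that list, had a log2 fold change of -0.09 ± 0.30 (SE). Of 10 genes that degrade sterol enzymes or sense sterols, 6 were above 0, with a median of 0.05. By edgeR 0 of the 10 had an unadjusted p under 0.05, against 3.22% of all genes in either direction. Tmem97, the sigma receptor that is induced with the sterol enzymes, had 0.48 ± 0.29 there, and Pgrmc1, the most abundant per length, 0.20 ± 0.34.

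SREBPs bind weakly alone and act beside NF-Y and Sp1, so the promoters of the members were read for these motifs. RefSeq windows of 300 bases, from 250 before to 50 after the annotated start on GRCm38.p6, were given for 23 members, and for Fdft1, Fdps, Sqle and Stard4 none was used here. The NF-Y box CCAAT stood on either strand in 19 of 23 members, or 82.6%, against 41.1% of 27025 genes with a window. The Sp1 box GGGCGG stood in 20 of 23, or 87.0%, against 38.2%. The E-box CACGTG stood in 5 of 23, or 21.7%, against 8.09%. The sterol element core TCACNCCAC was found in 1 member, Hmgcs1, or 4.35%, against 1.44% of genes. Matches of different motifs overlapped in 0 pairs in these windows. SREBP elements vary beyond this core, so its absence from a window says only that these letters are not in it. The windows were not matched for base composition, and a gene with several windows counted as holding a motif if any of them did. The 19 members with a CCAAT box had log2 fold changes from -0.24 to 1.02 with a median of 0.65. The 4 without one were Acat2, Scap, Mbtps1 and Mbtps2, 3 of them of the SREBP2 processing machinery, and they ran from -0.04 to 0.13. Members without an Sp1 box were Ggps1, Mbtps2 and Pmvk, at -0.24, -0.04 and 0.65. The split by the CCAAT box was made after the values were seen and has no test. Ebp at 0.13 and Insig2 at 0.03 hold the CCAAT box as well.

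The 250 bases before the start are shown for the member that holds the sterol element core (Hmgcs1), the tested members with the smallest p for which a window was given (Lss, Nsdhl, Hsd17b7), the regulator with the highest log2 fold change (Insig1) and a protease gene without the box (Mbtps1), a choice made after their values were seen. They run 5′ to 3′ on the gene's strand, and capitals mark CCAAT on either strand and the core TCACNCCAC.
Hmgcs1 (GRCm38.p6, chr13:119690101-119690350, plus strand): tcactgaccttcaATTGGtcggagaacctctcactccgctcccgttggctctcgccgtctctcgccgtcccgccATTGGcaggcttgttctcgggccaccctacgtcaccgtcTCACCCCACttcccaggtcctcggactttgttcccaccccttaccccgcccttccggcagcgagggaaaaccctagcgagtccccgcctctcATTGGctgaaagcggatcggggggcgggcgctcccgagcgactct
Lss (GRCm38.p6, chr10:76531355-76531604, plus strand): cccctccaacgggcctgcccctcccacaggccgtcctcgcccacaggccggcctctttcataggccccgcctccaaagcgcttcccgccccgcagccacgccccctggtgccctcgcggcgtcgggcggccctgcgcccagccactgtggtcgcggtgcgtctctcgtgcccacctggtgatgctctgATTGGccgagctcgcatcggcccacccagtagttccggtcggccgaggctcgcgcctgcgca
Nsdhl (GRCm38.p6, chrX:72918271-72918520, plus strand): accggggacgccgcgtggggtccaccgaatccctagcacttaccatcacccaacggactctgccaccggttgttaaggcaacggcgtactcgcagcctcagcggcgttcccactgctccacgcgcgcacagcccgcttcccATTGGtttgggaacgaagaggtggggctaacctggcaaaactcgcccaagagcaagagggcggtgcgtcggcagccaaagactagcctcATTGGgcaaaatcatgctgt
Hsd17b7 (GRCm38.p6, chr1:169969206-169969455, minus strand): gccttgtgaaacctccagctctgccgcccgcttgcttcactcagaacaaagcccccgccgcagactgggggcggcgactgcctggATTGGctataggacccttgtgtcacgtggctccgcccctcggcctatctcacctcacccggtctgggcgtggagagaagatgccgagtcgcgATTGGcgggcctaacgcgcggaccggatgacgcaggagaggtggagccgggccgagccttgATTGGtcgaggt
Insig1 (GRCm38.p6, chr5:28071162-28071411, plus strand): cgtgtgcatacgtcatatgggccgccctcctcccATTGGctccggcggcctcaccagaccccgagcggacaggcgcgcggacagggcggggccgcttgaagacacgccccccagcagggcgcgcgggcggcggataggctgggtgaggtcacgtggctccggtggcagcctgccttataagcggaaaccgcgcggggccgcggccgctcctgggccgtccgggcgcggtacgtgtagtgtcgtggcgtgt
Mbtps1 (GRCm38.p6, chr8:119558762-119559011, minus strand): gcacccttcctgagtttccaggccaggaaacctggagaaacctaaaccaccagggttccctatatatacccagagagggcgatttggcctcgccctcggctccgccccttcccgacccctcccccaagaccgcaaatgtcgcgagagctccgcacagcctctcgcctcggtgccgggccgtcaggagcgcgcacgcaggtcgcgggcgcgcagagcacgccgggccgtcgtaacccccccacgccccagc

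Hmgcs1 carried 3 CCAAT boxes and the sterol element core in these 250 bases, the core starting 137 bases before the start. Hsd17b7 also carried 3 boxes, the nearest 12 bases before the start, and Nsdhl carried 2, the nearest 20 bases before it. Lss and Insig1 carried 1 each, at 62 and 216 bases before the start. Mbtps1 carried none.

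**Figure D4:**
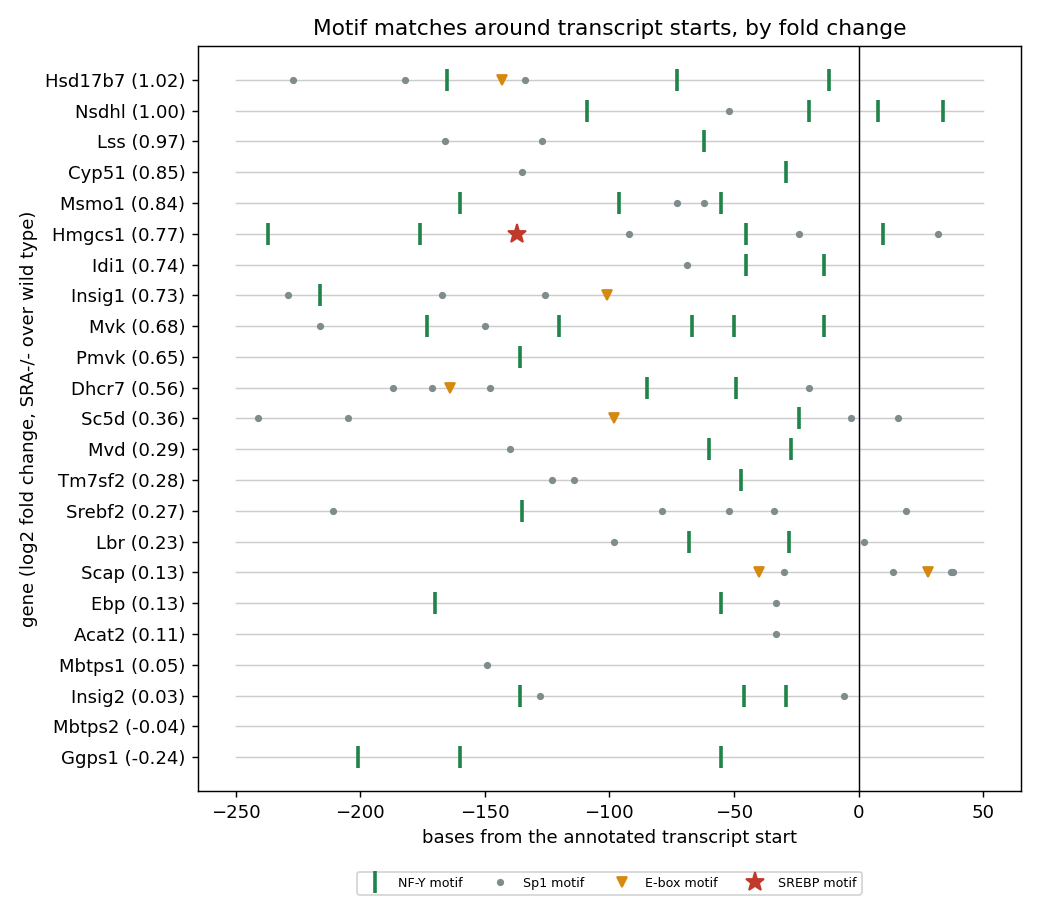
Positions of NF-Y, Sp1, E-box and SREBP motif matches on either strand from 250 bases before to 50 after the annotated start, with the windows of a gene drawn on 1 line, for the 23 members with a window, ordered by log2 fold change (in brackets) from Hsd17b7 at 1.02 to Ggps1 at -0.24. Scap, Acat2, Mbtps1 and Mbtps2, between 0.13 and -0.04, are the 4 lines with no NF-Y match.

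Of the members, Msmo1, Mbtps1 and Mvd lie on chromosome 8 with Msr1, at 25.1, 80.1 and 83.1 megabases from it on mm39, with log2 fold changes of 0.84, 0.05 and 0.29.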

How the data were processed

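Per the labels' protocols, total RNA depleted of rRNA was sequenced in 3 SRA-/- and 3 wild type libraries, grouped by their titles. The genome build mm39 and the tools STAR, FastQC and featureCounts are named in, and credited to, the submitters' processing notes. The deposited values are raw counts, which the authors made with featureCounts 2.0.2 over exons by gene name on GENCODE vM26, without strand, per the file headers. Mates were counted singly: 68.5% to 71.9% of counts from 1 to 4 were even, so a fragment mostly gives 2 counts, and 6 counts (3 fragments) equal 0.136 to 0.253 CPM, a floor that covers counting error only. For the aligner version and trimming, the sources used here give nothing.

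Counts were analysed with R 4.3.3 and edgeR 4.0.16: filterByExpr, TMM, glmQLFit (robust) and glmQLFTest on group alone, with Benjamini-Hochberg adjustment over 20541 genes at a threshold of 0.05. Each SE is the absolute log2 fold change over the root of F. Each p-value sets the difference between the groups against the spread between these samples, which edgeR estimates in part across genes. An exact permutation test of 3 against 3 cannot give a p below 0.1. The procedure was tested on simulated data. CPM per kilobase used the exon length in the files. Alternatives were other size factors, library totals, DESeq2 1.42.0, limma-voom (limma 3.58.1), other filters, a replicate block, a hepatocyte covariate and libraries left out. Promoters came from RefSeq on GRCm38.p6, and gene positions are those of the files on mm39. Figures used matplotlib 3.10.9.

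The members and lists were chosen with earlier results of these data known. All members are named. Those given library by library had the smallest p or the widest change of their role, or the highest level per length, and each other pathway list is represented by its smallest p and highest level per length. Outside that rule, Fdft1, Msmo1, Ebp, Srebf2 and, of the recruited monocyte list, Ccr2 are given library by library, chosen after their values were seen.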

Additional observations from a re-analysis of the deposited data

How the results depend on the processing

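The count of changed genes over all tested genes, 10 by edgeR, was 68 with DESeq2, 75 with limma-voom with quality weights, 32 with no filter on low counts and 3 to 40 with 1 library left out. The replicate block gave 5 changed genes and 0 members. The labels do not say whether samples of the same number were handled together. Deviations of same-numbered libraries correlated at -0.29, -0.14 and -0.13 for numbers 1, 2 and 3, and no library correlated best with its own number. Deviations were taken from the mean of each group of 3, so these correlations do not decide whether the numbers pair samples. The count of changed members, 0, was 2 with limma-voom with quality weights and 0 to 1 with 1 library left out. Of 27 members 20 kept their sign under all 15 alternatives. With the hepatocyte covariate Ebp was at -0.13, Insig2 at -0.14 and Mbtps1 at -0.013. With limma-voom with quality weights Insig2 was at -0.070 and Scap at -0.012. Without both replicates 3, Tm7sf2 was at -0.28, Ebp at -0.62, Sc5d at -0.23, Insig2 at -0.47, Scap at -0.043 and Mbtps1 at -0.11. With 1 library left out, Ebp ran from -0.25 to 0.57, Insig2 from -0.25 to 0.32, Tm7sf2 from -0.05 to 0.62, Scap from -0.012 to 0.24, Mbtps1 from -0.05 to 0.21 and Mbtps2 from -0.16 to 0.084. Sc5d ran from 0.0095 to 0.63 there. The cause was not tested. Depth limits Fdps and Nsdhl most, with 61 to 297 counts a library.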
